A study of Mus musculus with 2 samples.

Results

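Genes of macrophages and of leukocytes in general were followed in whole pancreata of *Mafk*-Tg and WT mouse embryos at E15.5. The members were a list of 50 genes named by symbol, and their values on these arrays are no part of the rule. The list was, however, chosen with earlier results of these data known. All 50 were measured, each by 1 probe set that carries that symbol alone, among 19938 genes on the array. For description they were sorted by role into 18 tissue macrophage genes, 10 genes shared by myeloid cells, 15 pan-leukocyte genes, 5 lymphoid genes and the receptors of early blood progenitors, *Flt3* and *Kit*.

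The *Mafk*-Tg embryos carried mouse *Mafk*, with a FLAG tag at its amino terminus, under the rat insulin I promoter. The study describes the overexpression as specific to β-cells, and transgene expression in blood cells was not tested here. Transgenic founders came from BDF1 eggs, and the line was kept on an ICR background like the WT embryos that served as the reference. RNA of the whole pancreas was read on 1 array per genotype, so 2 arrays were compared. The labels speak of 3 pancreata per genotype, and whether each array held a pool of them is not stated. No spread between replicates could therefore be measured, no test was run, and every difference below describes a pair of arrays. For *Mafk*, the gene of the transgene, the arrays read 7.0 in *Mafk*-Tg and 6.75 in WT on the log2 scale, a difference of 0.25 on RNA of the whole organ. At a ratio of 1.187, *Mafk* fell short of the 1.2-fold cutoff used below. The arrays also differed in *Xist*, with 11.30 in *Mafk*-Tg and 4.40 in WT. The Y-linked gene *Eif2s3y* had 2.61 in *Mafk*-Tg and 8.29 in WT. *Uty* and *Kdm5d*, also Y-linked, had 3.07 and 3.54 in *Mafk*-Tg and 7.75 and 7.46 in WT. This is the pattern of female RNA on the *Mafk*-Tg array and male RNA on the WT array. Genotype and embryo sex therefore cannot be told apart in any value given here, including those of autosomal genes.

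Macrophages settle in the pancreas, as in other organs, during fetal life. They come from the yolk sac and from monocytes of the fetal liver, depend on the receptor CSF1R and clear dying cells with scavenger receptors, Fc receptors and complement. Pan-leukocyte genes such as *Ptprc*, the gene of CD45, are read in macrophages too, but equally in granulocytes, mast cells, monocytes and their progenitors. Genes of tissue macrophages and pan-leukocyte genes therefore mark overlapping and not identical sets of cells. On RNA of a whole organ, fewer cells of a type and less RNA per cell cannot be told apart.

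The promoters of several members are shown because the transcription factor PU.1, the product of the member *Spi1*, drives genes of macrophages and other leukocytes from ETS elements near their start sites. RefSeq windows of build GRCm38.p6, from 250 bases before to 50 bases after the start, matched 40 of the 50 members. The letters AGGAAGT, the core of an ETS and PU.1 element, were searched on both strands and stood in the windows of 16 of these 40 members, or 40%, against 10.7% of the 27025 genes of the promoter table. Genes with more than 1 window counted once if any window held the letters. The 6 windows below are of members described with their values further on. Capitals mark AGGAAGT or, on the opposite strand, ACTTCCT, and in *Hcls1* also TGACTCA, an AP-1 element.
*C1qb* (chr4:136886151-136886450, minus strand): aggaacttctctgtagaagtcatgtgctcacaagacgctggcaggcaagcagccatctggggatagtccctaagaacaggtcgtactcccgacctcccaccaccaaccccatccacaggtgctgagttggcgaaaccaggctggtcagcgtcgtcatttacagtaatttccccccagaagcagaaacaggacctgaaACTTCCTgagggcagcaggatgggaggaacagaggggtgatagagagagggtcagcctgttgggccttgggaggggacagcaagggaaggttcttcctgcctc
*C1qc* (chr4:136892865-136893164, minus strand): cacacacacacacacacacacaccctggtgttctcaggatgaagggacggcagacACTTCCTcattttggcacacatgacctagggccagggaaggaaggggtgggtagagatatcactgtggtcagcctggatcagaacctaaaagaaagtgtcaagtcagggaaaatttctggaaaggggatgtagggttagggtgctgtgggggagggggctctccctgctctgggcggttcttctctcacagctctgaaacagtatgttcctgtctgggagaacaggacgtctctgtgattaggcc
*Lyz2* (chr10:117282223-117282522, minus strand): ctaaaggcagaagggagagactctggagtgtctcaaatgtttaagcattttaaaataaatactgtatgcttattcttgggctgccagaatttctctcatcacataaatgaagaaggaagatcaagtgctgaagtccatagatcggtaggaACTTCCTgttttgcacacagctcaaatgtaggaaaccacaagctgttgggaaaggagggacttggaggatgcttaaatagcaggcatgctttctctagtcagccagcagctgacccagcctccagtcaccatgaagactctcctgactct
*Mrc1* (chr2:14229164-14229463, plus strand): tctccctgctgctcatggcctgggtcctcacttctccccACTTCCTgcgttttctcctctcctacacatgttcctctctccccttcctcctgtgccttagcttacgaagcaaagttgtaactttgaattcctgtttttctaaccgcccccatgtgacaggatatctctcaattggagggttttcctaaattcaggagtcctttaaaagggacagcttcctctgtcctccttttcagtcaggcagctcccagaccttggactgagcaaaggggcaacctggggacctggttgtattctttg
*Cd53* (chr3:106790100-106790399, minus strand): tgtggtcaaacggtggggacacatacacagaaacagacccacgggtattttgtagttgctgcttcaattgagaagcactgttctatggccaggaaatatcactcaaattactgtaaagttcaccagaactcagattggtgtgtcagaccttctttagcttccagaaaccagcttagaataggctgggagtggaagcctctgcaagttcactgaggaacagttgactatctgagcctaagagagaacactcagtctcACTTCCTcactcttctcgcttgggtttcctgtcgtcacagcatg
*Hcls1* (chr16:36934733-36935032, plus strand): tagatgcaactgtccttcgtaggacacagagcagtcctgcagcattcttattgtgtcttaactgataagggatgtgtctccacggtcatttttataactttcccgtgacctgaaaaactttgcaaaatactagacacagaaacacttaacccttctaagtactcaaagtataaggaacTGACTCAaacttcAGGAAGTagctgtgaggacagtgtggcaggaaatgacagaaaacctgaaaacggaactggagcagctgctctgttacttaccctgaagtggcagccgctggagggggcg

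The element began 53 bases before the start in *C1qb*, 195 in *C1qc*, 100 in *Lyz2*, 211 in *Mrc1* and 59 in *Hcls1*. In *Cd53* it lay just after the start. Of these 6, only *Hcls1* read AGGAAGT on the strand of the gene. By role, the letters were found in 5 of 14 tissue macrophage members with a window, 6 of 12 pan-leukocyte members, 1 of 8 shared myeloid members and all 4 lymphoid members with a window, while neither *Flt3* nor *Kit* held them. The median log2 difference, *Mafk*-Tg minus WT, was -0.30 in the 16 members with the letters, of which 11 were at least 1.2-fold lower and 0 higher. It was -0.28 in the 24 members whose windows lack them, of which 14 were lower and 1 was higher. Among all genes, 10.5% were at least 1.2-fold lower and 7.96% higher. Whether the members with and without the letters differ was not tested.

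MAFK binds Maf recognition elements, and the letters TGCTGAC, the first arm of such an element with its centre, were searched in the same windows on both strands. They stood in the windows of 3 of the 40 members, *Coro1a*, *Fcgr3* and *Timd4*, or 7.5%, against 5.28% of all genes of the table. TGACTCA, which can overlap TGCTGAC at the letters TGAC, stood in 2 of 40, *Cd68* and *Hcls1*, or 5% against 5.95% of all genes, and no member held both. The stretches around TGCTGAC are shown since they are the only such matches among the members, with TGCTGAC or its opposite strand, GTCAGCA, in capitals. A match is a description of letters and not a bound site.
*Coro1a* (chr7:126704866-126704926, minus strand): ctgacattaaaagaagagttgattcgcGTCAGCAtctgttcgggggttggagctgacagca
*Fcgr3* (chr1:171059413-171059473, minus strand): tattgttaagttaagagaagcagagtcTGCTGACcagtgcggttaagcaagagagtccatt
*Timd4* (chr11:46810727-46810787, plus strand): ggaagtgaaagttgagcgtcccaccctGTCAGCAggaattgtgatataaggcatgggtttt

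Most of the 50 genes were lower in the *Mafk*-Tg pancreas. A gene was called lower or higher when the arrays differed by at least 1.2-fold, the study's cutoff, or 0.26 on the log2 scale. At this cutoff 2087 genes were lower and 1587 higher, each more than the probe sets the study lists. The calls made here are therefore not the study's list. Of the 50 members, 32 were at least 1.2-fold lower in *Mafk*-Tg and 1 was higher, against 10.5% of all genes lower and 7.96% higher. Their median log2 difference was -0.31, a ratio of 0.806, where the median of all genes was -0.01. At 1.5-fold, 10 members were lower and 0 higher, against 1.27% and 0.697% of all genes. The lower values were not shared evenly, since 13 of 15 pan-leukocyte and 8 of 10 shared myeloid genes passed the cutoff, but 7 of 18 tissue macrophage genes did.

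**Figure D1:**
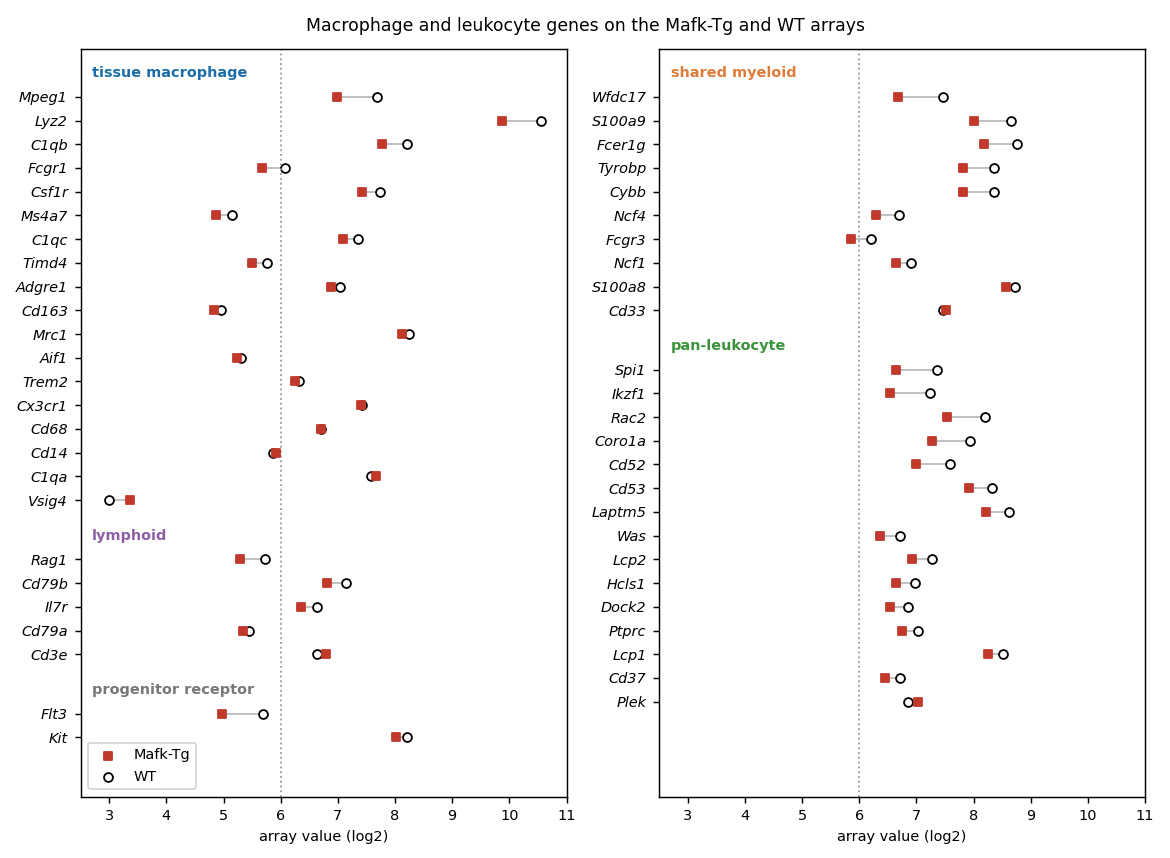
Log2 array values of the 50 members in *Mafk*-Tg (squares) and WT (circles), 1 array per genotype, ordered within each role by the difference, with a dotted line at the median of the whole array. The squares lie left of the circles for all pan-leukocyte genes except *Plek*, while the squares and circles of many tissue macrophage genes, such as *Cd68* and *Cx3cr1*, nearly coincide.

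Among the pan-leukocyte genes, the transcription factors of the blood lineage were lowest. *Spi1*, which encodes PU.1, had a log2 value of 6.65 in *Mafk*-Tg and 7.37 in WT. The difference was -0.72, a ratio of 0.608, and only 108 of the 19938 genes had a lower difference. *Ikzf1*, the gene of the lymphoid and myeloid factor IKAROS, had 6.54 in *Mafk*-Tg and 7.23 in WT, a difference of -0.69. These were the 2 lowest differences among the 15 genes.

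Genes of the leukocyte cytoskeleton and its small GTPase signalling came next. *Rac2*, the blood cell form of the GTPase RAC, had 7.54 in *Mafk*-Tg and 8.20 in WT, a difference of -0.66. *Coro1a*, which encodes the actin-binding protein coronin 1A, had 7.28 in *Mafk*-Tg and 7.93 in WT, a difference of -0.65. Genes that act on actin downstream of surface receptors were closer together on the arrays. *Was*, the X-linked gene of the Wiskott-Aldrich syndrome protein, had 6.36 in *Mafk*-Tg and 6.72 in WT, a difference of -0.35. *Hcls1*, which encodes a cortactin-like protein and whose window is printed above, had 6.64 in *Mafk*-Tg and 6.98 in WT, a difference of -0.34. *Dock2*, an activator gene of RAC, had 6.54 in *Mafk*-Tg and 6.85 in WT, a difference of -0.31. *Lcp1*, the gene of the actin bundler L-plastin, sat at the cutoff, with 8.25 in *Mafk*-Tg, 8.51 in WT and a ratio of 0.833.

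Of the 7 surface and signalling genes among the 15, 5 passed the cutoff as lower, while *Cd37* and *Plek* did not. *Cd52*, a small anchored glycoprotein gene, had 6.99 in *Mafk*-Tg and 7.59 in WT, a difference of -0.60. *Ptprc*, which encodes the common leukocyte phosphatase CD45, had 6.74 in *Mafk*-Tg and 7.03 in WT, a difference of -0.29. The tetraspanin gene *Cd53*, whose window is printed above, had 7.92 in *Mafk*-Tg and 8.32 in WT, at -0.40. The others of this kind spread around the median of the role, -0.35. *Laptm5*, a lysosomal membrane protein gene, had 8.22 in *Mafk*-Tg and 8.61 in WT, and *Lcp2*, the gene of an adaptor of immune receptors, had 6.93 in *Mafk*-Tg and 7.28 in WT. The tetraspanin gene *Cd37* had 6.46 in *Mafk*-Tg and 6.71 in WT, and with a ratio of 0.838 it fell just short of the cutoff. *Plek*, the gene of the platelet and leukocyte kinase substrate pleckstrin, was the only one of the 15 above 0, with 7.02 in *Mafk*-Tg and 6.85 in WT. All 15 were as bright as the array's median probe set or brighter, and among genes of that brightness 5.87% of 11412 genes were at least 1.2-fold lower and 5.58% higher.

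Genes shared by macrophages, monocytes and granulocytes gave the lowest median of the roles with more than 2 genes, -0.46, or a ratio of 0.725. *Wfdc17*, a gene of a small secreted protein with a whey acidic domain, had 6.68 in *Mafk*-Tg and 7.46 in WT. At -0.78 it was the lowest of all 50 members, with 67 genes of the array lower. The signalling adaptors that carry the activating motif for Fc receptors and for TREM2, *Fcer1g* and *Tyrobp*, were near each other in difference. *Fcer1g* had 8.19 in *Mafk*-Tg and 8.77 in WT, a difference of -0.58, and *Tyrobp* had 7.81 in *Mafk*-Tg and 8.35 in WT, a difference of -0.54. Receptor genes of myeloid cells spread more widely. *Fcgr3*, a low-affinity Fc receptor gene that needs the product of *Fcer1g* at the surface, had 5.85 in *Mafk*-Tg and 6.20 in WT, a difference of -0.35. *Cd33*, a sialic acid receptor gene, had 7.51 in *Mafk*-Tg and 7.47 in WT. *Trem2*, a lipid receptor gene counted with the tissue macrophage genes, signals through TYROBP and had 6.25 in *Mafk*-Tg and 6.32 in WT. Of these receptors, *Fcgr3* alone passed the cutoff.

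The phagocyte oxidase, which makes superoxide in granulocytes and macrophages, was lower in each subunit followed. *Cybb*, its X-linked catalytic subunit, had 7.82 in *Mafk*-Tg and 8.36 in WT, a difference of -0.54. Of the genes of its cytosolic subunits, *Ncf4* had 6.30 in *Mafk*-Tg and 6.69 in WT, a difference of -0.39, and *Ncf1* had 6.63 in *Mafk*-Tg and 6.90 in WT, a difference of -0.27 just past the cutoff. The subunits of calprotectin, a calcium-binding protein of granulocytes and monocytes, were unequal in difference. *S100a9* had 8.01 in *Mafk*-Tg and 8.65 in WT, a difference of -0.64, whereas *S100a8* had 8.56 in *Mafk*-Tg and 8.73 in WT, a difference of -0.17 within the cutoff.

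Tissue macrophage genes had the smallest median difference of the 5 roles, -0.14, or a ratio of 0.907, and 10 of the 18 stayed within 1.2-fold. *Mpeg1*, which encodes the pore-forming protein perforin-2, had 6.98 in *Mafk*-Tg and 7.68 in WT, a difference of -0.71. *Lyz2*, the gene of lysozyme, had 9.88 in *Mafk*-Tg and 10.56 in WT, a difference of -0.68. These were the only tissue macrophage genes past 1.5-fold. Without them, a choice made after their values had been seen, the median of the other 16 was -0.12. Leaving out the lowest genes of a group can only raise its median or leave it unchanged, so no conclusion is drawn from this value. A probe set of *Lyz2* may also read its close paralogue *Lyz1*.

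Several genes by which resident macrophages are usually recognised differed little. *Mrc1*, the mannose receptor gene, had 8.13 in *Mafk*-Tg and 8.25 in WT, a difference of -0.12. *Adgre1*, an adhesion receptor gene widely used to mark mouse macrophages, had 6.88 in *Mafk*-Tg and 7.04 in WT, a difference of -0.16. *Cx3cr1*, the fractalkine receptor gene, had 7.41 in *Mafk*-Tg and 7.42 in WT. *Cd68*, a gene of a lysosomal glycoprotein, had 6.71 in *Mafk*-Tg and 6.70 in WT. None of these 4 passed the cutoff. *Csf1r*, the receptor on which macrophages depend, had 7.43 in *Mafk*-Tg and 7.74 in WT, and at -0.31 it passed it. The high-affinity Fc receptor gene *Fcgr1* had 5.68 in *Mafk*-Tg and 6.08 in WT, and it passed as well at -0.40.

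Complement C1q is assembled from chains of 3 neighbouring genes on chromosome 4 that macrophages read together, and the chains did not differ alike. *C1qb* had 7.77 in *Mafk*-Tg and 8.21 in WT, a difference of -0.43. *C1qc* had 7.09 in *Mafk*-Tg and 7.35 in WT, with a ratio of 0.833 at the cutoff. *C1qa* had 7.66 in *Mafk*-Tg and 7.57 in WT, a difference of 0.09.

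The remaining tissue macrophage genes, like *Fcgr1*, were dimmer than the array's median probe set, where single genes scatter more widely between the arrays, with a robust SD of 0.24 on the log2 scale against 0.15 among brighter genes. *Ms4a7*, a tetraspan gene of macrophages, had 4.86 in *Mafk*-Tg and 5.15 in WT, a difference of -0.28. *Timd4*, a receptor gene for phosphatidylserine, had 5.50 in *Mafk*-Tg and 5.76 in WT, and with a ratio of 0.835 it fell just short of the cutoff. The others were nearer 0. The scavenger receptor gene *Cd163* had 4.83 in *Mafk*-Tg and 4.96 in WT, the calcium-binding protein gene *Aif1* had 5.23 in *Mafk*-Tg and 5.30 in WT, and the endotoxin co-receptor gene *Cd14* had 5.92 in *Mafk*-Tg and 5.87 in WT. *Vsig4*, an X-linked complement receptor gene, was the only one of the 50 called higher, at 0.36, with 3.37 in *Mafk*-Tg and 3.0 in WT, near the bottom of the scale. Of the 11 brighter tissue macrophage genes, 5 were lower and 0 higher, with a median of -0.16. Among all genes at or above the array's median level, 5.87% were lower and 5.58% higher.

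**Figure D2:**
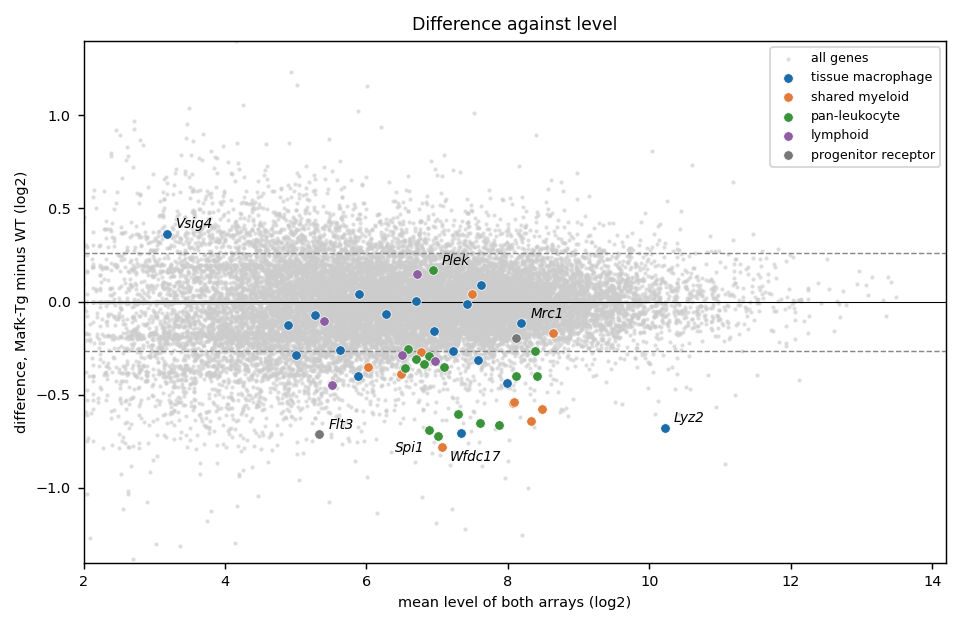
Log2 difference, *Mafk*-Tg minus WT, against the mean log2 level of both arrays for all genes (grey) and the 50 members (coloured by role), with dashed lines at 1.2-fold and 90 genes outside the axes. At levels between 6 and 9 the pan-leukocyte and shared myeloid genes lie mostly below the lower line, while tissue macrophage genes lie on both sides of it.

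Set against each other, the tissue macrophage median lay above the pan-leukocyte median by 0.21 on the log2 scale, above the shared myeloid median by 0.32 and above the lymphoid median by 0.14. Only 4 of the 18 tissue macrophage genes, *C1qb*, *Mpeg1*, *Lyz2* and *Fcgr1*, were below the pan-leukocyte median of -0.35, whereas 14 of the 15 pan-leukocyte genes were below the tissue macrophage median. The ranges of the roles overlapped, from -0.71 to 0.36 for tissue macrophage genes and from -0.72 to 0.17 for pan-leukocyte genes. Whether the roles differ beyond the error of the arrays was not tested. In level, all 15 pan-leukocyte genes and all 10 shared myeloid genes reached the array's median, as did 11 of 18 tissue macrophage genes and 3 of 5 lymphoid genes. Since probe sets differ in how brightly they read a given amount of RNA, these levels do not rank the genes by abundance.

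Lymphoid genes were lower in part, with 3 of 5 past the cutoff, 0 higher and a median of -0.28. *Rag1*, which encodes a recombinase subunit of developing lymphocytes, had 5.28 in *Mafk*-Tg and 5.73 in WT, a difference of -0.45. *Cd79b*, a chain of the B cell receptor complex, had 6.82 in *Mafk*-Tg and 7.13 in WT, at -0.32, and its partner *Cd79a* had 5.34 in *Mafk*-Tg and 5.45 in WT, at -0.10. *Il7r*, a cytokine receptor gene of lymphoid progenitors, had 6.35 in *Mafk*-Tg and 6.64 in WT, a difference of -0.28. Of these 4 members, *Cd79a* alone did not pass the cutoff. *Cd3e*, a chain of the T cell receptor complex, had 6.78 in *Mafk*-Tg and 6.63 in WT, a difference of 0.15. Its complex partners *Cd3d* and *Cd3g* were at 4.42 and 5.13 in *Mafk*-Tg and at 4.77 and 4.77 in WT, below the array's median. Of 16 other measured T, B and NK cell genes, 13 lay below it, 4 were at least 1.2-fold lower and 3 higher, with a median difference of -0.04. Among all genes 10.5% were lower and 7.96% higher by that much. These 16 genes ran both ways, with the B cell lectin gene *Cd22* highest at 0.63 and *Igll1*, a surrogate light chain gene of early B cells, lowest at -0.47. With most of these markers dim on both arrays, the 5 lymphoid members are described as genes and not as cells.

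The receptors of early progenitors differed by unequal amounts, and only *Flt3* passed the cutoff. *Flt3*, the receptor gene of multipotent and dendritic progenitors, had 4.98 in *Mafk*-Tg and 5.69 in WT, a difference of -0.71 at a level below the median. *Kit*, the stem cell factor receptor gene, which mast cells and other cells of the embryo also read, had 8.01 in *Mafk*-Tg and 8.20 in WT, a difference of -0.19 within the cutoff.

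Genes outside the 50 were counted to place these values. The shares to set beside each count below are 10.5% of all genes at least 1.2-fold lower and 7.96% higher. Of 19 other measured tissue macrophage genes, 3 were at least 1.2-fold lower and 0 higher, with a median of -0.13, close to the -0.14 of the 18 members of that role. *Ms4a6c* was lowest with 8.10 in *Mafk*-Tg and 8.63 in WT, at -0.53. The cathepsin gene *Ctss*, the coagulation factor gene *F13a1* and *Ms4a6d* followed at -0.29, -0.27 and -0.24. Neither growth factor gene of macrophages passed the cutoff, with *Csf1* near it at -0.23 and *Il34* at -0.01. Of the 13 measured genes of the CSF1 axis and of myeloid regulation, 2 were at least 1.2-fold lower and 0 higher, at a median of -0.21. The cytokine receptor gene *Csf2rb* was at -0.48, the transcription factor gene *Cebpb* at -0.36, *Zeb2* at -0.26 and *Irf8*, a factor of monocytes and dendritic cells, at -0.24. Of 8 genes of MHC class II presentation, only *Cd74*, at -0.39, was lower and 0 were higher, and 7 of the 8 were dimmer than the array's median. Of 13 genes of inflammatory mediators, 4 were lower and 4 higher at a median of 0.00, with *Chil3* at -0.96 and *Il1b* at 0.60 the farthest apart, and 12 of the 13 were that dim. Genes below the median level scatter more widely, with a robust SD of 0.24 on the log2 scale against 0.15 among brighter genes.

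Granule genes of granulocytes and mast cells were lower by more than any role among the 50, with 11 of 14 past the cutoff, 0 higher and a median of -0.59. *Ctsg*, *Mpo* and *Elane*, protease and peroxidase genes of promyelocytes, were at -1.25, -1.0 and -0.88, and *Hdc*, the histamine-forming enzyme gene of mast cells and basophils, at -0.88. Genes of mature neutrophil granules were nearer 0, with *Camp* at -0.20, *Ngp* at -0.13 and *Ltf* at 0.02. The medians of the pan-leukocyte and shared myeloid genes thus lay between those of the granule genes and the tissue macrophage genes.

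**Figure D3:**
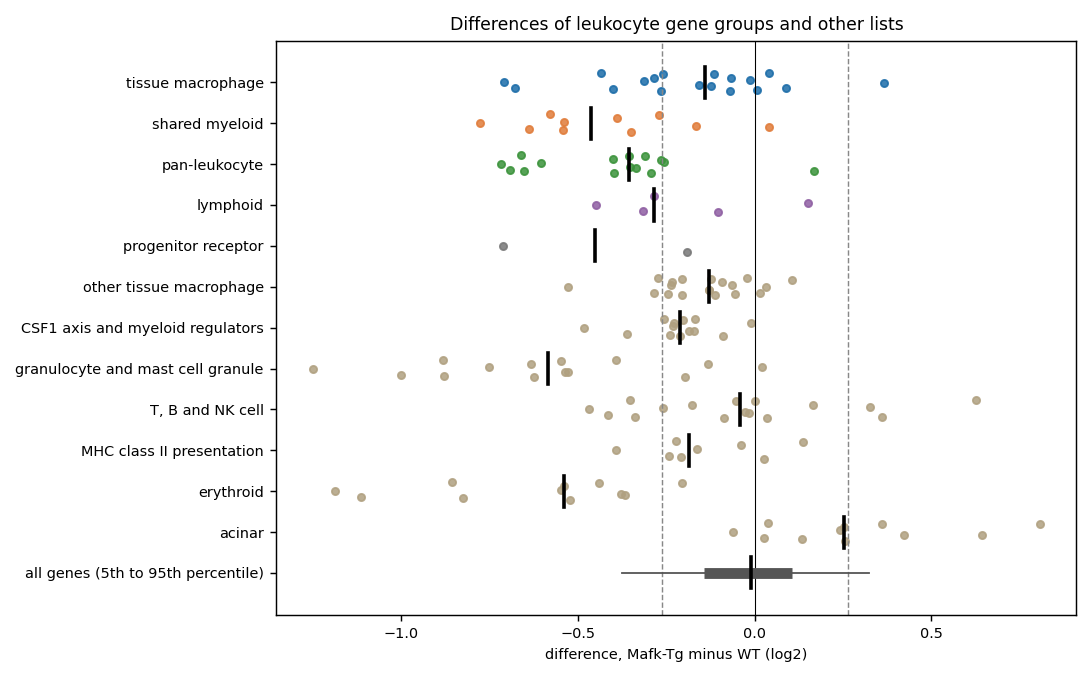
Differences on the log2 scale, *Mafk*-Tg minus WT, with a point per gene and a black bar at the median, for the 5 roles of the 50 members and 7 other lists, 1 array per genotype, with dashed lines at 1.2-fold. The bottom row gives all genes, with the thick line from the 25th to the 75th percentile and the thin line from the 5th to the 95th. Tissue macrophage medians, -0.14 and -0.13, lie nearer 0 than those of shared myeloid genes, -0.46, and granule genes, -0.59.

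Genes of other cell types differed between the same arrays. Of 11 erythroid genes, 10 were at least 1.2-fold lower in *Mafk*-Tg and 0 higher, with a median of -0.54 and a mean log2 level of 7.31 in *Mafk*-Tg and 7.95 in WT. Hepatocyte genes had a median of -0.47, and 5 of the 7 measured were lower. Endothelial genes, 9 in all, had 0 past the cutoff and a median of -0.12, and of 10 mesenchyme genes 2 were lower, with a median of -0.11. Acinar genes ran the other way, with 4 of 11 higher, 0 lower and a median of 0.25. The part of blood, of adjoining tissue or of embryo sex in the differences of the leukocyte genes was not tested. Without the X-linked *Cybb*, *Was* and *Vsig4*, the medians were -0.16 for tissue macrophage genes, -0.39 for shared myeloid genes and -0.38 for pan-leukocyte genes. This omission leaves any sex difference of autosomal genes in place, so no conclusion on embryo sex is drawn from it.

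**Figure D4:**
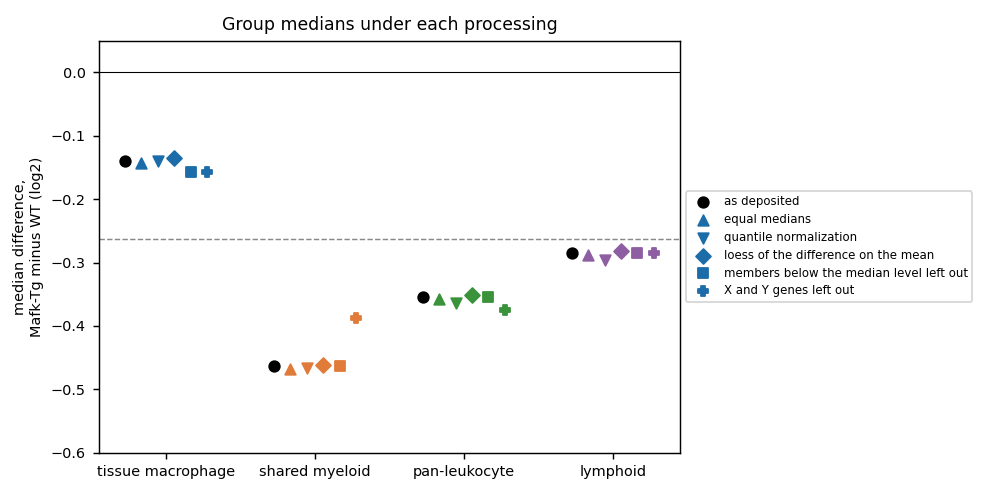
Median log2 difference, *Mafk*-Tg minus WT, of 4 roles as deposited (black circles) and under 5 alternative ways of scaling the arrays or choosing the genes, with a dashed line at 1.2-fold. The tissue macrophage median stays between -0.16 and -0.13 and the pan-leukocyte median between -0.38 and -0.35.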

How the data were processed

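RNA of whole E15.5 pancreata had been labelled with biotin and hybridised to Affymetrix MoGene-1_0-st-v1 arrays, of which 2, 1 of *Mafk*-Tg and 1 of WT, entered the comparison. The labels name Trizol for the extraction and the methods a column kit. Normalization and summary to probe sets were done by the authors with Affymetrix Expression Console. Its algorithm was not stated. The deposited values are log2 values between 0.51 and 14.01, with array medians of 6.01 in *Mafk*-Tg and 6.01 in WT, and were used without further scaling.

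The platform's gene table gave 1 symbol to 21789 of 35556 probe sets, several to 1621 and none to 12146. Where several probe sets carried the same single symbol their mean was taken, which gave 19938 genes, and RefSeq holds the symbols of 19855. Differences are *Mafk*-Tg minus WT on that scale. No test was possible on a single array of each genotype, which limits the precision throughout, so counts over all genes stand beside those of the members. The members and lists were chosen with earlier results of these data known. The text names all members, up to 4 genes with the largest differences of every other list it describes singly, and *Mafk* and sex-linked genes. *Csf1*, *Il34*, *Cd3d*, *Cd3g*, *Camp*, *Ngp* and *Ltf* were named after their values had been seen.

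Promoter windows came from RefSeq, build GRCm38.p6. As alternatives, the arrays were quantile normalized, set to equal medians or corrected by a loess fit of difference on level (span 0.3), and further settings were the brightest probe set of a gene, the omission of dim members or genes of the X and Y chromosomes, and a cutoff of 1.5-fold. The steps were tested on simulated data. Calculations ran in Python 3.11.15 with pandas 2.3.3 and numpy 2.4.6, the loess in statsmodels 0.14.6, and plots in matplotlib 3.10.9.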

Additional observations from a re-analysis of the deposited data

How the results depend on the processing

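Of 119 alternative values of the roles' counts and medians, 110 stayed near those of the deposited values and 9 moved. Counts have no sign to change, and no median or difference of medians changed sign. Part of the 110 could not move. That holds for the brightest probe set, and for leaving out dim or sex-chromosome genes in roles that have none. A count was taken as near within 1.5 times, and a median within 0.1 on the log2 scale. At 1.5-fold, 2 tissue macrophage, 2 shared myeloid, 5 pan-leukocyte and 0 lymphoid genes were lower, and 0 tissue macrophage genes were higher. The 1 higher tissue macrophage gene, *Vsig4*, was dim and X-linked, so 0 were left without dim members or without sex-chromosome genes. Without dim members 0 of the progenitor receptors was lower, with *Kit* alone at -0.19. Equal medians changed the call of 1 of the 50 genes, *Timd4*, quantile normalization of 3, *Timd4*, *Cd37* and *Lcp1*, and the loess of 2, *C1qc* and *Lcp1*, all of which lie at the cutoff. The brightest probe set changed 0, since each member has 1. The tissue macrophage median lay above the pan-leukocyte median by 0.20 to 0.22 and above the lymphoid median by 0.13 to 0.16 under the scaling and filter alternatives. No paired analysis was possible because each genotype has 1 array. For the same reason the error of no value could be estimated, and 10 of the 50 members lay below the array's median level.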
